A study of Mus musculus with 12 samples.

Results

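YAP and TAZ are transcriptional coactivators, and TEAD proteins are the DNA-binding factors through which they act. The 10 genes described here are Yap1 and Wwtr1, which encode YAP and TAZ, Tead1 to Tead4, the TEAD-binding cofactor gene Vgll3, and 3 genes known as YAP and TAZ targets, namely Ankrd1, Amotl2 and Lats2. They were found by gene symbol among the 55092 features of a table of mouse abdominal aorta RNA-Seq, each as a row with an Ensembl identifier, and all 10 passed the filter on low values used for testing. Ccn2, the gene deleted in this study, and its relative Ccn1 are also well-known targets of the pathway, and their values are given where they bear on the 10 genes.

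The study asked how loss of CCN2 from smooth muscle cells changes the aorta's response to Ang II, a hormone that raises blood pressure. The mice were male, 3 per group, and 1 library was made from the abdominal aorta of each. CFS and CFA were CCN2fl/fl mice, which carry floxed Ccn2 alleles without Cre, infused by minipump with saline (CFS) or Ang II (CFA). CSS and CSA were CCN2SMC∆ mice, which carry the same floxed alleles and the tamoxifen-inducible Myh11-Cre-ERT2, given saline in CSS and Ang II in CSA. All 4 groups received 5 tamoxifen doses at 8 weeks of age, followed by a washout of 2 weeks, and Ang II was given at 500 ng/kg/min for 7 days. The Cre is active in cells that express Myh11, so other cells of the vessel kept their Ccn2, and no group carried the Cre without floxed alleles. The paper reports that nearly all mice treated as CSA developed infrarenal aneurysms, with a thickened media and broken elastin. Among mice treated as CFA, it describes aneurysms as few, mild and located elsewhere. The sample labels do not say which sequenced aortas held an aneurysm. The part of aneurysm in the CSA results was not tested. Values are FPKM, which adjust fragments for gene length, so that levels can be set side by side between genes. Between libraries the deposited values had been scaled by a median of ratios, not by library totals.

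In the Hippo pathway, the kinases MST1 and MST2 activate LATS1 and LATS2, which phosphorylate YAP and TAZ and hold them in the cytoplasm. When the kinases are inactive, as in stretched or spread cells, YAP and TAZ enter the nucleus and bind TEAD proteins at target genes. Several targets feed back on the pathway, among them Lats2 and Amotl2, and in vascular smooth muscle YAP and TAZ are known for roles in growth and in the control of contractile genes.

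TEAD proteins recognise the M-CAT element, whose core reads GGAATG, or CATTCC when read on the opposite strand. The 250 bases before the annotated start were searched for both spellings in the RefSeq promoter table of GRCm38.p6, which held 8 of the 10 genes (12 start sites). Tead1, Tead4 and Ccn2 were not among its entries. A match was found before at least 1 start of 6 of those 8 genes, and not in the windows of Tead2 and Lats2. Of all 32817 promoters in the table, 12.6% held a match and 0.987% held at least 2. These shares are per start site, not per gene. Counted per start site, 8 of the 12 windows of these genes held a match, and the 2 windows of Wwtr1 share theirs. Each match is printed on its gene's strand, 5′ to 3′, with 12 bases on either side and the core in capitals, because these 6 genes and Ccn1 carry the sequence that the pathway's own DNA-binding factors read.
Yap1, chr9:8004720-8004749: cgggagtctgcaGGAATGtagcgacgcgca
Wwtr1, chr3:57576029-57576058: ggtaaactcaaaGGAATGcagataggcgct
Vgll3, chr16:65815114-65815143: cccgcctccccaCATTCCggctaccctgcc
Tead3, chr17:28350970-28350999: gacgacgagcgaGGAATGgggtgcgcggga
Tead3, second start, chr17:28350706-28350735: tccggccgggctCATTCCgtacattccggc
Amotl2, chr9:102717727-102717756: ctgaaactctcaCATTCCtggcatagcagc
Ankrd1, chr19:36120037-36120066: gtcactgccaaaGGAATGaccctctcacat
Ankrd1, chr19:36119950-36119979: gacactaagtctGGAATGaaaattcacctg
Ccn1, chr3:145650071-145650100: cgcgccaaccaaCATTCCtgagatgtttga
The first base of the core lay 141 bases before the start of Yap1, 136 before that of Wwtr1, 63 before that of Vgll3, 182 before the first start of Tead3 and 65 before that of Amotl2. Ankrd1 held 2 matches, at 210 and 123 bases before the RefSeq start. The cores of Ankrd1, of Amotl2 and of the second start of Tead3 lie within exons of the GENCODE annotation, and the other cores printed lie outside annotated exons. The second start of Tead3 also held 2, of which the line above shows the one at 123 bases in capitals. For Vgll3 and the first of 2 starts of Wwtr1, whose windows overlap no annotated exon, the whole 250 bases (both shown because these genes were lower together in CSA) read as follows, on the minus strand for Wwtr1 and the plus strand for Vgll3.
Wwtr1, chr3:57575911-57576160: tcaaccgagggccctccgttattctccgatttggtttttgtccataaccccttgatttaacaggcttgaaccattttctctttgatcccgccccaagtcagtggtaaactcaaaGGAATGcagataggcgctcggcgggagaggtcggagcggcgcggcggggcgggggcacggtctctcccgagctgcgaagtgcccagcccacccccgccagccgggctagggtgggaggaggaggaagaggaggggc
Vgll3, chr16:65814939-65815188: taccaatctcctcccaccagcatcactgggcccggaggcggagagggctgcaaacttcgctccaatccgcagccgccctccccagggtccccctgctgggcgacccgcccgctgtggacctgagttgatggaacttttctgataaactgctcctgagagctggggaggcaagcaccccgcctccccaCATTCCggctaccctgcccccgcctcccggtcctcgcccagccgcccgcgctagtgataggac
A match describes these letters only. No binding of TEAD was measured in these samples, and the absence of the letters from a window says nothing of the factor.

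Depth, recovered from the FPKM with the annotated gene lengths, was 14552449 to 23100941 fragments per mouse, and the 10 genes had between 37 and 6679 fragments in a library. Ccn2, the targeted gene, measured 255, 331 and 399 FPKM in CSA mice 01, 02 and 03 and 564 to 1105 in CFA, without overlap, whereas in CSS (436 to 640) and CFS (480 to 1108) its levels overlapped. Its exons overlap an antisense gene over 23.2% of their bases. The tissue label was checked against markers of cell types: the summed FPKM of 10 smooth muscle genes was 8413 to 10561 in CFS, 7912 to 8964 in CSS and 5699 to 8597 in CFA, but 823 to 977 in CSA. Of these 10 genes, 10 were lower in CSA than in CFA (adjusted p under 0.05, log2 fold change below -1.5). The summed FPKM of 10 macrophage genes was 333 to 708 in CFA and 2405 to 2624 in CSA, and that of 8 fibroblast genes was 2881 to 3201 in CFA and 4586 to 5435 in CSA. The fibroblast genes went both ways, with 3 higher (Col1a1, Col1a2 and Lum) and 3 lower (Dpt, Pi16 and Dpep1) at an adjusted p under 0.05, and the collagens held most of the sum. Over 7 neutrophil genes the sum was 11 to 28 in CFA and 512 to 564 in CSA, and over 7 endothelial genes 198 to 429 and 112 to 142, with 3 of them lower (Pecam1, Tek and Vwf) and 1 higher (Emcn). The 7 T cell genes (1.0 to 2.62 in CFA, 27.3 to 39.2 in CSA) and the 7 cell division genes (3.67 to 26.6 and 34.1 to 51.9) had higher sums in every CSA mouse. The sums of B cell (1.26 to 2.41 in CFA, 4.61 to 7.91 in CSA) and Schwann cell genes (12.3 to 16.1 and 20.7 to 23.6) were also higher in every CSA mouse. That of cardiac muscle genes was lower (5.05 to 7.86 and 2.99 to 4.52), with 2 of 4 tested genes called lower and 1 higher. All 7 adipocyte genes had negative log2 fold changes (median -2.17), and 3 were called lower. Every result on CSA was measured beside these shifts in markers. In bulk tissue fewer cells of a type and less RNA per cell cannot be told apart, and the part of the cell types in the results was not tested.

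CSA mouse 03 stood apart from the other mice of its group. The root mean square difference of its log2 values from mice 01 and 02 was 1.21 and 1.2, against 0.505 between those mice. The difference followed the GC content of the transcripts: relative to the mean of the other CSA mice, its median log2 value was higher by 0.67 over the tenth of genes with the lowest GC content (up to 41.8%) and was -1.23 over the tenth with the highest (from 58.2%). Among the 10 genes, Tead3 has the highest GC content in its longest coding transcript (59.5%), Tead4 (58.1%) and Tead2 (57.9%) follow, and Vgll3 has the lowest (40.7%). Tead3 in mouse 03 lay below the mean of mice 01 and 02 by 2.78 log2 units (-2.78), and Lats2, at a GC content of 52.2%, lay 1.08 above it. The results on the 10 genes and their lists that rest on CSA are therefore given with all mice and, for CSA against CFA, without mouse 03 and after a correction that removes each library's median deviation in bins of GC content.

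**Figure D1:**
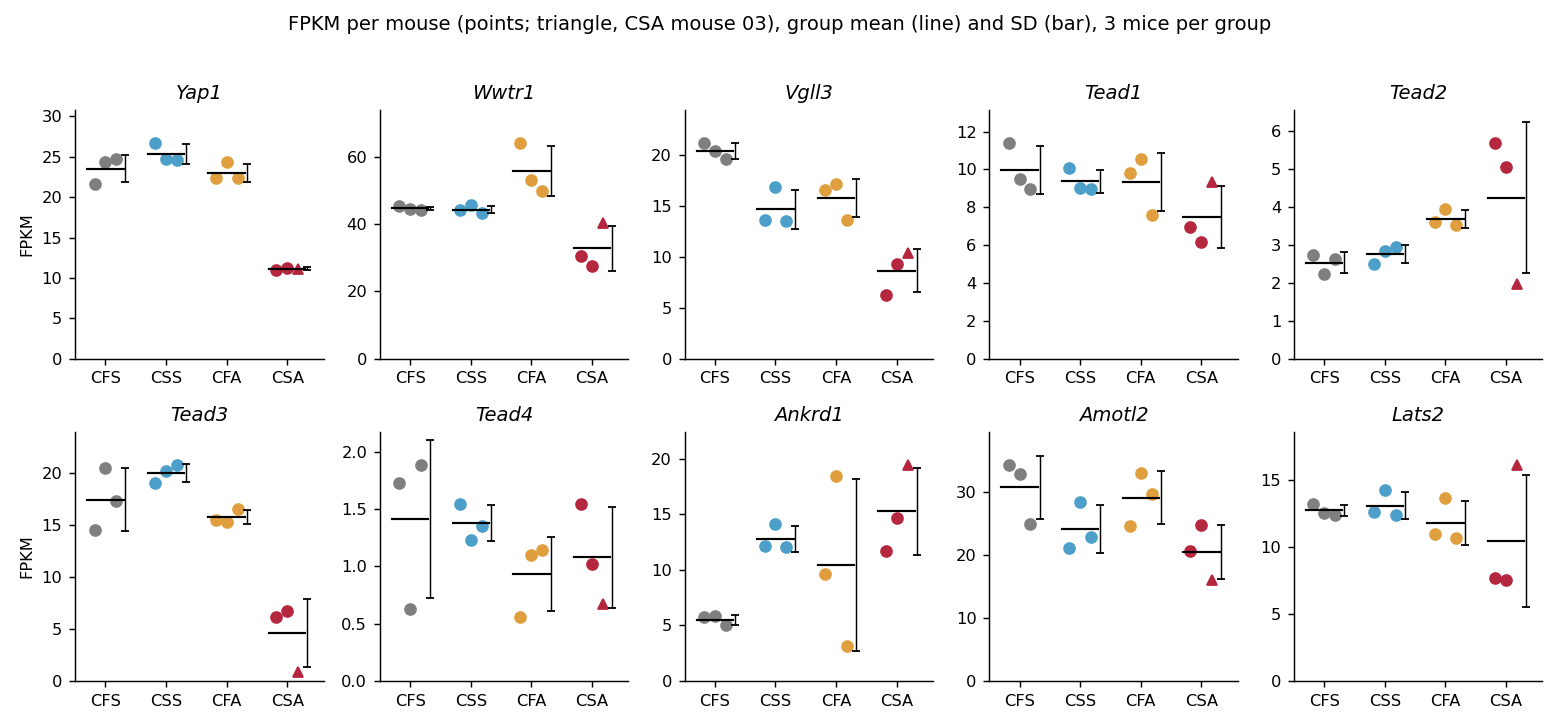
FPKM (vertical axes, linear from 0) of the 10 genes in each mouse, by group, with the group mean as a line and the SD as a bar (n = 3 mice per group). CSA mouse 03 is drawn as a triangle. Yap1, Wwtr1, Vgll3 and Tead3 are lower in every CSA mouse than in every mouse of the other groups, and CSA mouse 03 lies away from the other CSA mice for Tead2, Tead3 and Lats2.

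In saline-treated CCN2fl/fl aorta the coactivator gene Wwtr1 had the highest level per length of the 10, at 44.7 ± 0.52 FPKM (SD, n = 3). Amotl2 followed at 30.7 ± 5.03, then Yap1 at 23.6 ± 1.68, Vgll3 at 20.4 ± 0.82 and Tead3 at 17.4 ± 3.02. The lower levels were those of Lats2 (12.7 ± 0.45), Tead1 (9.97 ± 1.28), Ankrd1 (5.51 ± 0.45), Tead2 (2.53 ± 0.27) and Tead4 (1.41 ± 0.69). Among neighbours in this order, Vgll3 and Tead3 overlapped between mice, and all other neighbours were separate in the 3 CFS mice. In CSA the order differed, with Wwtr1 still first (32.8 ± 6.66 FPKM), Amotl2 second (20.5 ± 4.29) and then Ankrd1 (15.2 ± 3.93). Amotl2 and Ankrd1 overlapped between the CSA mice. Yap1 then stood at 11.1 ± 0.17 and Lats2 at 10.5 ± 4.94, although Lats2 was above Yap1 in CSA mouse 03 and below it in mice 01 and 02. Tead3 at 4.59 ± 3.25 overlapped Tead2 at 4.24 ± 1.99 through mouse 03, and lay above it in mice 01 and 02.

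The comparison of CSA with CFA asked what differs between the genotypes under Ang II. Both coactivator genes, the cofactor gene Vgll3 and Tead3 were lower in CSA, by fitted log2 fold changes of -1.04 for Yap1, -0.77 for Wwtr1, -0.88 for Vgll3 and -2.20 for Tead3. Of the known targets, Amotl2 and Lats2 had negative log2 fold changes and Ankrd1 a positive one. None of these passed the test with all mice, and the targets were not tested against each other. By the study's limits (adjusted p under 0.05, fold change beyond 1.5 log2 units either way) 1 of the 10 genes was called, Tead3, which was lower, beside 17.2% of the 14676 genes tested, 8.27% being lower. Without the fold limit 4 were lower at an adjusted p under 0.05 and 0 higher, beside 40.7% of all genes, of which 21.2% were lower. The same 4 genes did not overlap between the groups, as was true of 25.1% of all genes in the lower direction and 48.5% in either, so the share of the 10 genes that differed was near that of the whole table. The median log2 fold change of the 10 was -0.42, and that of all genes -0.04.

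**Figure D2:**
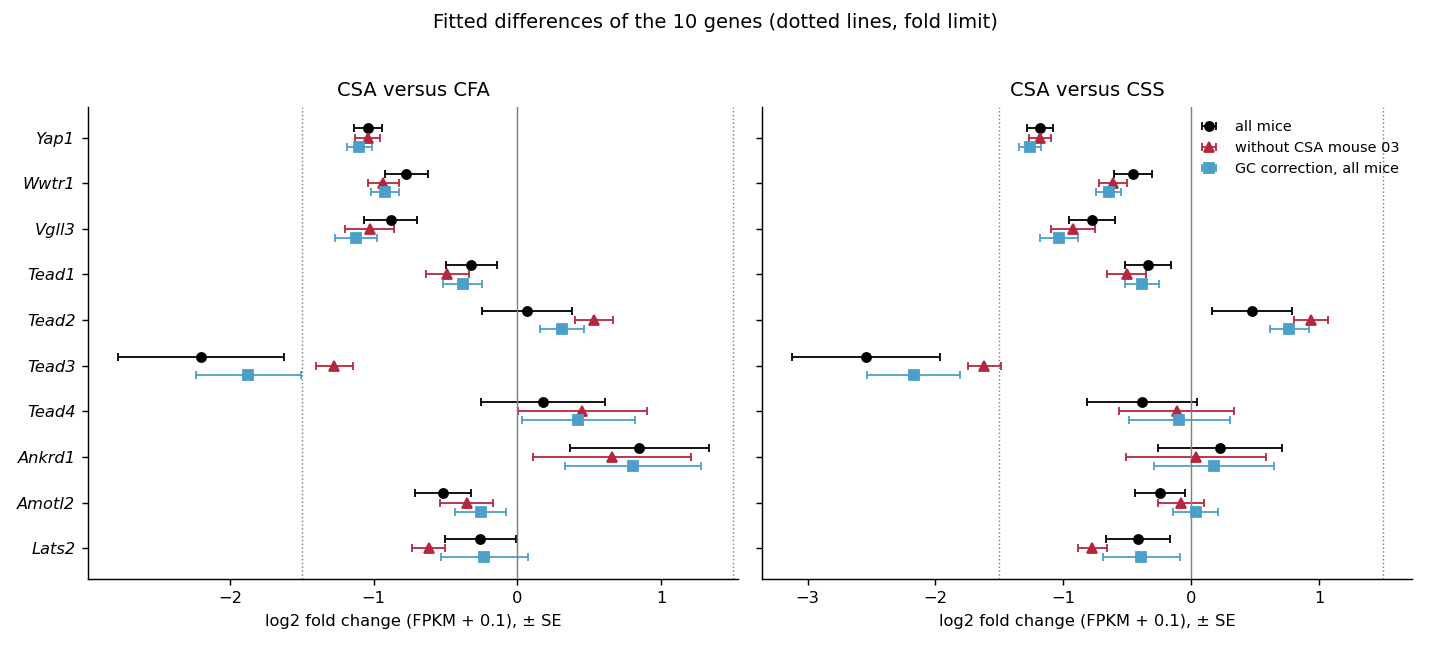
Fitted log2 fold changes of FPKM + 0.1 (horizontal axes) with their SE, for CSA against CFA (left) and CSA against CSS (right), with all mice (circles), without CSA mouse 03 (triangles) and after GC correction (squares). Dotted lines mark the fold limit of 1.5. Yap1 moves by little between the 3 settings, whereas Tead3 goes from -2.20 to -1.27 without mouse 03 in the left panel.

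Yap1 (chr9:7931999-8004596, GRCm38, like all positions here) encodes YAP. Its FPKM was 22.3, 24.3 and 22.3 in CFA mice 71, 72 and 74, and 10.9, 11.3 and 11.2 in CSA mice 01, 02 and 03. Every CSA mouse was below every CFA mouse, the CSA mice lay within a narrow range, and mouse 03 was like the others. The ratio of means was 0.484, and the fit gave a log2 fold change of -1.04 ± 0.10 (SE, limma adjusted p = 1.66e-05). It was -1.04 without mouse 03 and -1.10 after GC correction, and the adjusted p stayed under 0.05 in all 15 alternatives. Of all genes tested, 15.1% had a lower log2 fold change. In the saline groups Yap1 was 21.6 to 24.7 FPKM in CFS and 24.6 to 26.8 in CSS, levels that overlapped.

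Wwtr1 (chr3:57455649-57575910) encodes TAZ, the paralog of YAP. CFA mice 71, 72 and 74 had 64.2, 53.0 and 49.9 FPKM, and CSA mice 01, 02 and 03 had 30.6, 27.4 and 40.2. The groups did not overlap, although CSA mouse 03 stood closest to CFA. The log2 fold change was -0.77 ± 0.15 (SE, limma adjusted p = 0.00172). It was -0.93 without mouse 03 and -0.92 after GC correction, and it remained at an adjusted p under 0.05 in all 15 alternatives (0.0335 at most). Since FPKM is a level per length, the coactivator pool can be summed: Yap1 plus Wwtr1 came to 78.7 ± 7.22 FPKM in CFA and 43.9 ± 6.66 in CSA. Wwtr1 made up 70.6% ± 3.12 of that sum in CFA and 74.3% ± 3.73 in CSA, which overlapped (two-sided exact permutation test, p = 0.3, adjusted p = 0.4 over 8 share comparisons, where 0.1 is the smallest p that 3 against 3 allows). The difference of 3.66 percentage points was 1.67 without CSA mouse 03.

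Vgll3 (chr16:65815257-65866368) encodes a vestigial-like cofactor that binds TEAD proteins by itself. Its FPKM was 16.5, 17.1 and 13.6 in CFA mice 71, 72 and 74 and 6.25, 9.30 and 10.4 in CSA mice 01, 02 and 03. The groups did not overlap. The log2 fold change was -0.88 ± 0.18 (SE, limma adjusted p = 0.00273), -1.03 without mouse 03 and -1.12 after GC correction, and the adjusted p stayed under 0.05 in all 15 alternatives. Vgll3 also had a graded order over the groups, since its level in CFS (21.2, 20.4 and 19.6 in mice 68, 69 and 70) lay above CSS (13.6, 16.8 and 13.5 in mice 54, 55 and 56) and above CFA, each without overlap, and CSA lay below all of them. CSS and CFA overlapped with each other. Of all genes, 9.31% were lower without overlap in CSS than in CFS, and 10.8% in CFA than in CFS. Neither of these 2 differences of Vgll3 passed limma's test (adjusted p = 0.675 and 0.575).

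Tead3 (chr17:28331671-28350817) encodes a TEAD factor and had the highest level per length of the 4 TEAD genes in CFS, CSS and CFA. CFA mice 71, 72 and 74 had 15.5, 15.3 and 16.5 FPKM, against 6.20, 6.72 and 0.855 in CSA mice 01, 02 and 03. All CSA mice were below all CFA mice, and mouse 03, with 88 fragments, was far below the other CSA mice, which had 845 and 957. With all mice the fit gave -2.20 ± 0.58 (SE, limma adjusted p = 0.0108). It was -1.27 ± 0.13 (adjusted p = 3.29e-05) without mouse 03, a smaller difference with a smaller error that no longer passed the fold limit. After GC correction it was -1.87 (adjusted p = 0.00157), and with only the groups CSA and CFA in the fit the adjusted p was 0.0678, the highest of the 15 alternatives.

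With all mice the other TEAD genes did not pass the test. Tead1 (chr7:112679318-112906807), a TEAD factor known from heart and muscle, had 9.80, 10.6 and 7.60 FPKM in CFA mice 71, 72 and 74 and 6.97, 6.17 and 9.33 in CSA mice 01, 02 and 03. The groups overlapped through mouse 03, and the log2 fold change of -0.32 ± 0.18 (SE) did not pass the test (limma adjusted p = 0.178). It did without mouse 03 (-0.49, adjusted p = 0.0227) and after GC correction (-0.38, adjusted p = 0.0395), 2 of 15 alternatives whose adjusted p ran from 0.0227 to 0.445. Tead2 (chr7:45215753-45233644), a TEAD factor known from early development, had 3.6, 3.95 and 3.52 FPKM in the CFA mice and 5.70, 5.05 and 1.98 in CSA mice 01, 02 and 03. In mice 01 and 02 it was above every CFA mouse and in mouse 03 below all of them. It differed by 0.07 ± 0.31 (SE, adjusted p = 0.887) with all mice, 0.53 ± 0.13 (adjusted p = 0.0078) without mouse 03, and 0.31 (adjusted p = 0.115) after GC correction, so the call rested on which mice were used (0.0078 to 0.955 over 14 alternatives, 1 of them under 0.05). Tead4 (chr6:128224288-128300823), known from the trophoblast, was the lowest of the 10 at 0.561 to 1.89 FPKM and 37 to 117 fragments per mouse, with groups that overlapped in every comparison (0.18 ± 0.43, adjusted p = 0.772, and 0.45, adjusted p = 0.435, without mouse 03, 0.42, adjusted p = 0.399, after GC correction).

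Summed over the 4 genes, TEAD transcripts came to 31.4 ± 1.33 FPKM in CFS, 33.5 ± 0.50 in CSS, 29.7 ± 1.06 in CFA and 17.4 ± 4.02 in CSA (SD, n = 3). The sums in CSA mice 01, 02 and 03 were 20.4, 19.0 and 12.8, all below the lowest of the other groups at 28.8. Tead3 made up 53.2% ± 4.03 of the sum in CFA and 30.4%, 35.4% and 6.66% in CSA mice 01, 02 and 03. Tead2 made up 12.4% ± 0.33 in CFA and 27.9%, 26.6% and 15.4% in those CSA mice, so that in CSA its share was above that of CFA in every mouse although its level was not. The Tead1 share was 31.3% ± 4.27 in CFA and 34.2%, 32.5% and 72.7% in CSA, a difference of 15.2 percentage points that was 2.05 without mouse 03 (exact permutation p = 0.5 with all mice, adjusted p = 0.571).

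**Figure D3:**
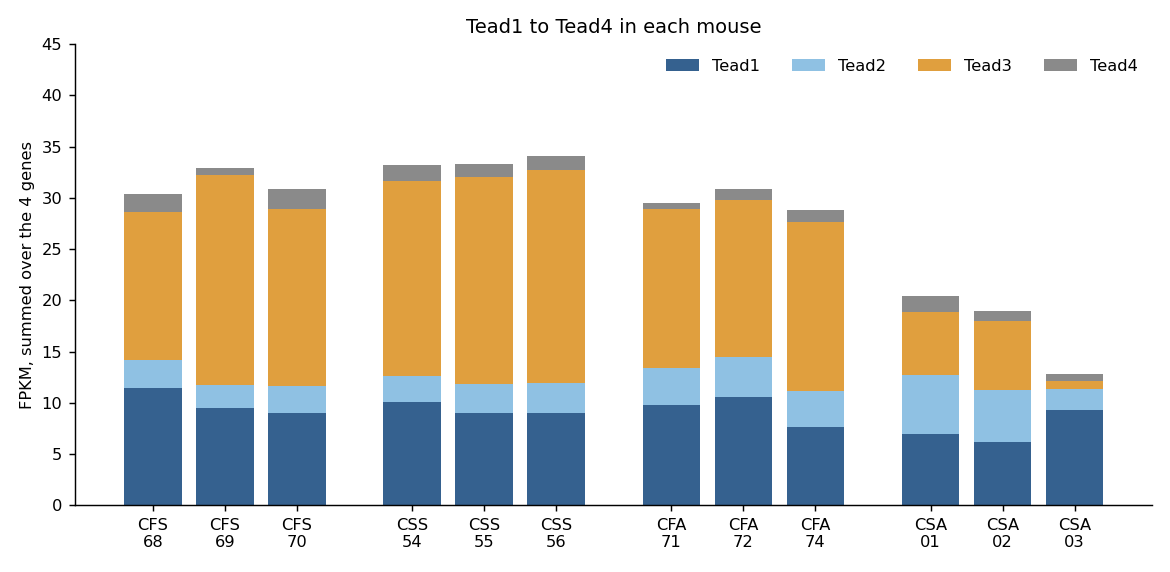
FPKM of Tead1, Tead2, Tead3 and Tead4 stacked for each of the 12 mice (bars from 0), by group. The Tead3 segment is the tallest in every CFS, CSS and CFA mouse, and the whole bar is lowest in the CSA mice, at 20.4, 19.0 and 12.8 FPKM.

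Amotl2 (chr9:102716672-102733418) encodes an angiomotin-like protein that binds YAP at cell junctions and is itself a target. It had 24.6, 33 and 29.6 FPKM in CFA mice 71, 72 and 74 and 20.7, 24.7 and 16.1 in CSA mice 01, 02 and 03, with an overlap at the edge of the ranges (24.6 against 24.7). The log2 fold change was -0.52 ± 0.20 (SE, limma adjusted p = 0.0563), and it was -0.25 (adjusted p = 0.265) after GC correction, -0.35 (0.135) without CSA mouse 03, -0.63 (0.049) without CFA mouse 71 and -0.66 (0.0284) without CSA mouse 02, with 0.0284 to 0.265 over 15 alternatives. Lats2 (chr14:57689662-57758388), the kinase gene that YAP and TAZ induce and that restrains them, had 11, 13.7 and 10.7 FPKM in CFA and 7.67, 7.54 and 16.2 in CSA. CSA mouse 03 was the highest of these 6 mice, while CSA mice 01 and 02 were the lowest. The log2 fold change was -0.26 ± 0.25 (adjusted p = 0.439) with all mice, -0.23 (adjusted p = 0.556) after GC correction, and -0.62 ± 0.11 (adjusted p = 0.00135) without mouse 03, the 1 alternative of 15 with a value under 0.05 (up to 0.842). Of the exonic bases of Lats2, 42.4% are shared with Gm49361 on the same strand, a gene listed at 0 in every library, so counting could have divided or dropped fragments there.

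Ankrd1 (chr19:36111961-36120099) encodes a muscle ankyrin repeat protein and is among the most used readouts of YAP and TAZ. Its FPKM in CFA was 9.65, 18.5 and 3.10 in mice 71, 72 and 74, a spread wider than in any other group, and 11.7, 14.6 and 19.4 in CSA mice 01, 02 and 03. The groups overlapped, and the log2 fold change of 0.85 ± 0.48 (SE, limma adjusted p = 0.187) ranged from 0.16 without CFA mouse 74 to 1.43 (adjusted p = 0.016) without CFA mouse 72, the 1 alternative of 15 with an adjusted p under 0.05 (up to 0.70). It was 0.66 (adjusted p = 0.349) without CSA mouse 03 and 0.80 (0.183) after GC correction. Within CFA the summed FPKM of 7 cell division genes was 15.6, 26.6 and 3.67 in mice 71, 72 and 74, the same order as Ankrd1. The sums of the smooth muscle (7868, 8597 and 5699), macrophage (368, 708 and 333) and neutrophil genes (22.1, 28 and 11) had this order too, as had those of T cell and cardiac muscle genes. Other sums did not, namely those of endothelial (307, 198 and 429), fibroblast (3201, 2881 and 2952), adipocyte (95.9, 236 and 265), B cell, skeletal muscle, Schwann cell and mesothelium genes. The part of these markers in the result was not tested. Ccn1, a secreted matrix protein gene and known target, overlapped between the groups at 157 to 413 FPKM in CFA and 161 to 188 in CSA (-0.77 ± 0.59, adjusted p = 0.329, and -0.84, adjusted p = 0.348, without mouse 03).

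In the saline groups, which compare the genotypes without Ang II, 0 of the 10 genes passed limma's test (0.0136% of all genes were called, and 0.0204% had an adjusted p under 0.05). Ankrd1 and Vgll3 had an unadjusted p under 0.05, as did 6.30% of all genes, and these 2 were also the genes whose groups did not overlap, as in 20.4% of all genes (11.1% higher, the direction of Ankrd1, and 9.31% lower, that of Vgll3). Ankrd1 had 5.73, 5.81 and 4.99 FPKM in CFS mice 68, 69 and 70 and 12.2, 14.2 and 12 in CSS mice 54, 55 and 56. Every CSS mouse was more than 6 FPKM above every CFS mouse, and the mean ratio was 2.32. In the limma fit of all groups its log2 fold change was 1.2 ± 0.48 (SE, unadjusted p from limma of 0.0311, adjusted p = 0.701) and the common error of that fit includes the wide spread of Ankrd1 in CFA. With only CSS and CFS in the fit the adjusted p was 0.0158, the 1 alternative of 15 under 0.05 (up to 1). Vgll3 had a log2 fold change of -0.48 ± 0.18 (unadjusted p from limma of 0.0238, adjusted p = 0.675). The sum of the 8 fibroblast genes was also lower in every CSS mouse (1615 to 1837 FPKM) than in every CFS mouse (2015 to 2537), as were Pdgfra, Dcn, Col1a1, Col1a2 and Dpt each, while Lum, Pi16 and Dpep1 overlapped between the groups. The log2 fold change was negative for 6 of the 8 and positive for Pi16 and Dpep1, and their part in the result was not tested.

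Ankrd1 is also a gene of striated muscle, so skeletal muscle markers were set beside it. Their summed FPKM over 10 genes was 172 in CFS mouse 68 and 280 in CSS mouse 55, and 3.56 to 6.12 in the other 10 mice. Ankrd1 was above every CFS mouse also in CSS mice 54 and 56 (12.2 and 12 FPKM), whose skeletal muscle sums were 3.56 and 3.87. The summed FPKM of the 7 cell division genes was 0.88 to 1.63 in CFS and 2.58 to 5.43 in CSS, without overlap. That of the 7 T cell genes was 0.425 to 1.684 and 1.694 to 3.89, also without overlap. All 7 adipocyte genes had negative log2 fold changes (median -1.18), with sums that overlapped (187 to 662 in CFS, 68.2 to 255 in CSS). Of the cardiac muscle markers, Tnnt2 (at most 0.152 FPKM in CFS, 0.632 to 0.871 in CSS) and Ryr2 (2.20 to 2.99 and 3.49 to 4.13) were higher in every CSS mouse and Myh6 lower in every one (1.54 to 4.58 and 0.12 to 0.219), and the sum over 6 genes overlapped. The part of all these markers in the result was not tested. Without CSS mouse 55 the log2 fold change of Ankrd1 was 1.12. The other muscle ankyrin repeat genes, Ankrd2 and Ankrd23, were too low to be tested. Of the other genes in the comparison, Yap1 (0.11 ± 0.10), Wwtr1 (-0.01 ± 0.15), Tead3 (0.21 ± 0.58) and Amotl2 (-0.35 ± 0.20) had log2 fold changes with groups that overlapped. The SE rests on the common error of the fit of all groups, which for Tead3 includes its spread in CSA (0.855 to 6.72 FPKM). With only CSS and CFS in the fit the adjusted p of Tead3 was 0.53 (limma).

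Ang II in CCN2fl/fl mice was addressed by CFA against CFS. In the fit of all groups none of the 10 genes passed limma's test, and 0 had an unadjusted p under 0.05. Of all genes 0.0273% were called, 0.0341% had an adjusted p under 0.05 and 9.42% an unadjusted p under 0.05. With only CFA and CFS in the fit, the unadjusted p from limma was 0.0065 for Tead2, 0.012 for Vgll3 and 0.034 for Wwtr1. Their adjusted p was then 0.267, 0.280 and 0.346, and 0 of all genes had one under 0.05. After GC correction the unadjusted p was 0.0084, 0.052 and 0.0126 in the same order. For 3 of the 10 the groups did not overlap, beside 20.2% of all genes: Wwtr1 and Tead2 were higher in every CFA mouse (as were 9.44% of all genes) and Vgll3 lower (as were 10.8%). Some marker sums did not overlap either. Those of fibroblast (2015 to 2537 FPKM in CFS, 2881 to 3201 in CFA), macrophage (252 to 310 and 333 to 708) and cell division genes (0.88 to 1.63 and 3.67 to 26.6) were higher in CFA. That of cardiac muscle genes was lower in CFA (9.65 to 9.98 and 5.05 to 7.86). The part of these markers in the differences was not tested. Wwtr1 had 45.2, 44.6 and 44.2 FPKM in CFS mice 68, 69 and 70 and 64.2, 53.0 and 49.9 in CFA (log2 fold change 0.31 ± 0.15, adjusted p = 0.572). Tead2 had 2.73, 2.22 and 2.64 FPKM in CFS and 3.6, 3.95 and 3.52 in CFA (0.53 ± 0.31, adjusted p = 0.682). The common error behind that SE includes the spread of Tead2 in CSA (1.98 to 5.70 FPKM). The Wwtr1 share of the coactivator sum was 65.5% ± 1.89 in CFS and 70.6% ± 3.12 in CFA, which did not overlap (exact permutation p = 0.1, adjusted p = 0.267).

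Ang II in CCN2SMC∆ mice was addressed by CSA against CSS, which uses the same CSA mice as the comparison with CFA. Again 1 of the 10 genes was called, Tead3, which was lower, beside 20.3% of all genes (9.36% lower), and 4 had an adjusted p under 0.05 in limma, all lower, beside 46.2% (23.9% lower). The same 4 had groups that did not overlap, beside 55.4% of all genes (29.1% lower). Yap1 was 26.8, 24.8 and 24.6 FPKM in CSS mice 54, 55 and 56 and 10.9 to 11.3 in CSA (log2 fold change -1.18 ± 0.10, adjusted p = 4.91e-06). Tead3 was 19.1, 20.2 and 20.8 FPKM in CSS (-2.54 ± 0.58, adjusted p = 0.00406, and -1.62 without CSA mouse 03). Vgll3 differed by -0.78 ± 0.18 (adjusted p = 0.00497).

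Wwtr1 was 44.1, 45.5 and 43.2 FPKM in the CSS mice, all above CSA. Its log2 fold change of -0.45 ± 0.15 (SE, limma adjusted p = 0.0283) kept an adjusted p under 0.05 in 8 of 15 alternatives. The adjusted p was above 0.05 in 5 of the 6 fits that left out a mouse of these groups, at 0.0727 without CSA mouse 01, 0.101 without CSA mouse 02, and 0.0699, 0.0793 and 0.0622 without CSS mice 54, 55 and 56, where the log2 fold change of Wwtr1 lay between -0.34 and -0.47. It was -0.61 (adjusted p = 0.000921) without CSA mouse 03, -0.64 (0.00022) after GC correction, -0.27 (0.126) with scaling to library totals, and the adjusted p was 0.0905 with only the 2 groups in the fit. The Wwtr1 share of the coactivator sum was 63.6% ± 1.26 in CSS, below the 70.9% to 78.3% of CSA in every mouse (exact permutation p = 0.1, adjusted p = 0.267). Without CSA mouse 03, 7 of the 10 genes had an adjusted p under 0.05 in this comparison and 7 in that of CSA with CFA (beside 53.6% and 48.7% of all genes). Tead2 at 0.94, Tead1 at -0.51 and Lats2 at -0.77 were the additions here.

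The interaction tested whether the genotype difference under Ang II departed from that under saline. Yap1 (-1.15 ± 0.14, adjusted p = 0.000262) and Wwtr1 (-0.76 ± 0.21, adjusted p = 0.0213) passed limma's test without the fold limit, beside 26.4% of all genes, and 0 of the 10 were called with it, beside 15.2%. For Yap1 the genotype difference was 0.11 under saline and -1.04 under Ang II, and the interaction held in all 20 alternatives. For Wwtr1 it was -0.01 and -0.77, with an adjusted p of 0.057 without CFA mouse 71 and 0.0503 without CSS mouse 55. Tead3 was at -2.41 ± 0.82 (adjusted p = 0.0514), and at -1.49 (adjusted p = 0.000172) without CSA mouse 03. Ankrd1, whose genotype difference was 1.2 under saline and 0.85 under Ang II, had an interaction of -0.35 ± 0.68 (adjusted p = 0.748).

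The other genes of the pathway were taken from lists. Of 23 genes of the Hippo kinase core and its regulators, 7 were lower and 6 higher in CSA than in CFA at an adjusted p under 0.05 (limma), with a median log2 fold change of -0.21, beside 21.2% of all genes lower and 19.5% higher. Without CSA mouse 03 the counts were 11 and 7, with a median of -0.26, beside 24.9% and 23.8%. After GC correction they were 9 and 6, with a median of -0.078, beside 25.1% and 22.7%. With all mice, those with the greatest differences were Wtip (-2.35 ± 0.62, adjusted p = 0.0107), which encodes a LIM protein that restrains LATS kinases, and the giant cadherin genes Fat4 (-1.80 ± 0.23, 0.00012) and Dchs1 (-1.39 ± 0.27, 0.00198), a receptor and ligand pair. Wtip showed the same gap as Tead3 within CSA, at 21.7, 22.2 and 3.04 FPKM in mice 01, 02 and 03, against 41.1 to 85.3 in CFA, and its log2 fold change was -1.41 (adjusted p = 0.00145) without mouse 03. Without that mouse Dchs1 was at -0.99 and Fat4 at -1.89. Fat4 was 0.832 to 1.22 FPKM in CSA and 3.05 to 4.52 in CFA, with mouse 03 close to mouse 01 (1.22 and 1.16).

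Of 19 genes for partners and brakes of YAP and TAZ, a list that includes 8 of the 10 genes above, 17 were tested. In CSA against CFA 11 were lower, among them Yap1, Wwtr1, Vgll3 and Tead3, and 1 was higher, with a median of -0.77, beside 21.2% of all genes lower and 19.5% higher. Without CSA mouse 03 the counts were 12 and 3, with a median of -0.85, beside 24.9% and 23.8%. After GC correction they were 12 and 1, with a median of -0.92, beside 25.1% and 22.7%. Amotl1, an angiomotin-like partner of YAP, had 21.5 to 23.2 FPKM in CFA and 10.9, 8.69 and 7.11 in CSA mice 01, 02 and 03 (-1.34 ± 0.14, limma adjusted p = 3.34e-05). Arhgef17 had 30.8 to 36.3 FPKM in CFA and 7.22 to 13.7 in CSA (-1.59 ± 0.23, adjusted p = 0.00023). Nuak2, a kinase gene known both as a YAP target and as a promoter of its activity, went the other way, from 1.03 to 2.62 FPKM in CFA to 6.48 to 8.72 in CSA (2.37 ± 0.32, adjusted p = 0.000172). Without CSA mouse 03 these genes were at -1.19, -1.30 and 2.51, each with an adjusted p under 0.05.

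Of 22 YAP, TAZ and TEAD target genes, 21 were tested, among them Ankrd1, Amotl2, Lats2, Ccn1 and Ccn2. In CSA against CFA 8 were lower and 3 higher at an adjusted p under 0.05 (limma), beside 21.2% and 19.5% of all genes, with a median of -0.28. Without CSA mouse 03 the counts were 11 and 3, with a median of -0.42, beside 24.9% and 23.8%. After GC correction they were 9 and 3, with a median of -0.25, beside 25.1% and 22.7%. Besides Nuak2, the higher targets were Igfbp3, which encodes a binding protein of insulin-like growth factors (2.40 ± 0.48, adjusted p = 0.00208), and Gadd45a, a gene of the response to DNA damage (1.77 ± 0.20, adjusted p = 4.51e-05). Igfbp3 was 1.17 to 3.95 FPKM in CFA and 11 to 17.5 in CSA, and Gadd45a 1.76 to 2.24 and 6.60 to 7.34. Without mouse 03 their log2 fold changes were 2.19 and 1.76. Ccn2 was among the lower ones (-1.41 ± 0.34, adjusted p = 0.00622, and -1.56 without mouse 03), and it is also the gene that Cre deletes.

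Genes of MRTF and SRF, a pathway that answers to actin and shares targets with YAP, included 7 lower and 1 higher of 13, with a median of -1.57, beside 21.2% and 19.5% of all genes. Without CSA mouse 03 the counts were 7 and 1, the higher one then being Mrtfa (0.65, limma adjusted p = 0.00756), with a median of -0.995, beside 24.9% and 23.8%. After GC correction they were 7 and 2, with a median of -1.01, beside 25.1% and 22.7%. With all mice the higher one was Fhl2 (0.81 ± 0.29, limma adjusted p = 0.0469, and 0.0636 without mouse 03), a LIM-domain cofactor gene, and both were named after their values were seen. The greatest differences were those of Myocd, the cofactor of SRF in smooth muscle (-2.76 ± 0.33, limma adjusted p = 6.77e-05), the tropomyosin gene Tpm2 (-2.76 ± 0.16, 7.9e-07) and the filamin gene Flna (-2.58 ± 0.24, 1.43e-05), which were at -2.97, -2.65 and -2.25 without mouse 03. Myocd stands also in the list of smooth muscle markers, whose median log2 fold change was -2.99. Tpm2 was 391 to 516 FPKM in CFA and 58.6 to 80.6 in CSA. In CSS against CFS and in CFA against CFS 0 genes of these lists passed limma's test.

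**Figure D4:**
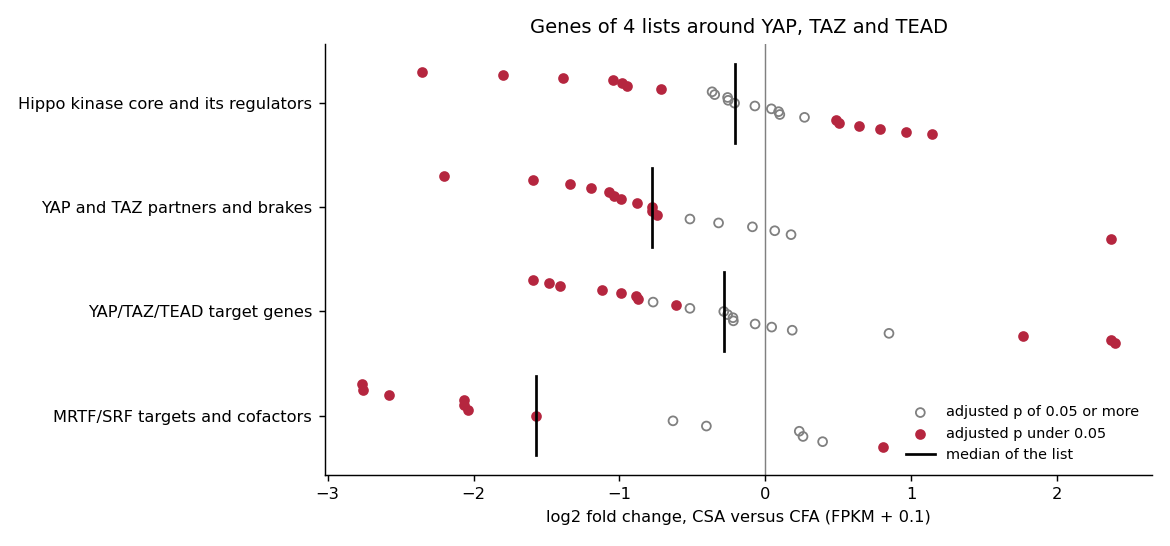
Log2 fold change of FPKM + 0.1 in CSA against CFA (horizontal axis) for each tested gene of 4 lists, filled where the adjusted p is under 0.05, with the median of each list as a vertical line. The medians are -0.21, -0.77, -0.28 and -1.57 from top to bottom, beside -0.04 for all genes, and lists share some genes.

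For 4 of the genes the most similar patterns over the 12 libraries were looked up among genes with a mean of at least 5 FPKM, by Pearson's r of log2 values. This r is a description, since the libraries share their groups and CSA alone can give a high value. Yap1 was closest to Npnt (r = 0.992), an integrin ligand of the matrix, Chmp4c (0.992), an ESCRT component, and Pdlim3 (0.992), a protein of the actin Z-disc. The levels of Npnt were 150 to 233 FPKM in CFA and 19.1 to 20.2 in CSA. Wwtr1 was closest to Fkbp9 (0.964), 1700020I14Rik (0.954) and Rhoq (0.943), and Tead1 to Efr3a (0.937), Agfg1 (0.933) and Med14 (0.929). Efr3a had 6.04, 5.98 and 10.2 FPKM in CSA mice 01, 02 and 03, and was highest in mouse 03, as Tead1 was. Ankrd1 had no neighbour as close, with Sae1 (0.896), Kdm1a (0.889) and Lgals1 (0.888) first.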

How the data were processed

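RNA-Seq of abdominal aorta from 12 male mice in 4 groups of 3 was analysed, with groups and mouse numbers taken from the sample labels. The authors deposited FPKM per gene and mouse, without pooling. The submitters' processing notes name HISAT2 2.0.5, StringTie 1.3.3b, featureCounts 1.5.0-p3 and mm10, with no roles given. Over the 15848 genes above 0 in every library, the median log ratio was equal in all 12, so the deposited FPKM had been scaled by a median of ratios. Of 55092 features, 54495 had an exon length in GENCODE M21 (GRCm38). With these lengths 98.1% to 98.5% of values under 100 fragments were whole fragments (within 0.05), and their sum was taken as depth. Counting limits cover counting error only. No column of the table was left unused.

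With limma 3.58.1 (R 4.3.3), log2(FPKM + 0.1) was fitted with 1 coefficient per group over 12 libraries, by lmFit and eBayes with trend and robust. The fit held 14676 features that reached 1 FPKM in 3 or more libraries (256 without an Ensembl identifier). A log2 fold change is on this scale and understates changes of low genes. P-values were adjusted over all features by the Benjamini-Hochberg method, and a gene was called by the study's limits (0.05 on the adjusted p, 1.5 on the size of the log2 fold change). The study's count-based test was not used on FPKM. Replicates are mice. Shares were compared by two-sided exact permutation tests. The fit was tested on simulated data. Python 3.11.15, pandas 2.3.3, numpy 2.4.6, scipy 1.17.1 and matplotlib 3.10.9 were used for tables and figures.

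The 10 genes and all lists were chosen with earlier results of these data known. By rule the text names the 10 genes, Ccn1 and Ccn2, the 3 tested genes of each pathway list with the largest absolute log2 fold change in CSA against CFA that are not among the 10, and the 3 genes of highest Pearson's r for 4 of the 10. Fhl2, Mrtfa and single marker genes were named after their values were seen. GC content is that of the longest coding transcript in GENCODE M21. Promoter sequences are from RefSeq (GRCm38.p6). Settings varied one at a time were the pseudocount (1), the filter (none, or a mean from 5 FPKM up), median-of-ratios scaling, equal FPKM sums, eBayes without trend and robust, a fit of the 2 groups compared, other calling limits and leaving out each mouse. Scaling to library totals and the GC correction in 50 bins were added after the data were seen.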

Additional observations from a re-analysis of the deposited data

Results flagged for a closer look

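For Yap1 the genotype difference under Ang II departed from that under saline by -1.15 on the log2 scale (interaction term, limma adjusted p = 0.000262), with every CSA mouse below every mouse of the other groups. For Wwtr1 the departure was -0.76 (adjusted p = 0.0213), again with every CSA mouse below all others, and its adjusted p was above 0.05 without CFA mouse 71 (0.057) or CSS mouse 55 (0.0503). These values are listed here because the 2 genotype differences differed by a test of the difference itself. Dixon's test for a single outlying value was not applied to groups of 3 mice.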

How the results depend on the processing

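Of 790 refitted log2 fold changes of the 10 genes, 733 kept their direction and side of the threshold, 10 lost and 21 gained an adjusted p under 0.05, and 26 changed sign. Median-of-ratios scaling changed no value, since the deposited FPKM had already been scaled so. Its refits are counted among the 733 and among the alternatives of each gene, where they add no support. Of the 10 genes, 4 were past the test without a fold limit in CSA against CFA and 4 in CSA against CSS (1 each with it). Of all genes these shares were 40.7% and 46.2% (17.2% and 20.3% with it). With only the 2 groups fitted the calls were 0 in CSA against CFA, beside 16.0% of all genes. In CSS against CFS 1 gene (Ankrd1) then passed an adjusted p under 0.05, beside 0.511% of all genes (0.0204% in the fit of all groups). For the interaction, where 0 were called, 2 passed without the fold limit, beside 26.4% of all genes. With an unadjusted p, a pseudocount of 1, a mean FPKM of at least 5 or GC correction 1 (Tead3) was called. Of the genes tested, 13.9% were called with that mean and 15.3% with GC correction (15.2% in the main fit). The shares of all genes with an unadjusted p and with a pseudocount of 1 were not counted. After GC correction 4 of the 10 had an adjusted p under 0.05 (2 without it), beside 32.6% of all genes. Leaving out each mouse gave 0 to 1 genes called and 4 to 7 with an adjusted p under 0.05 in CSA against CFA, 3 to 7 of the latter in CSA against CSS, and 0 to 1 and 1 to 4 for the interaction. The upper counts with an adjusted p were those without CSA mouse 03. Of all genes, 32.9% to 48.7% had an adjusted p under 0.05 over these fits in CSA against CFA. In CSA against CSS the share was 38.8% to 53.6%. For the interaction it was 36.1% without CSA mouse 03, where 4 of the 10 passed. It was 21.1% without CFA mouse 71 and 22.5% without CSS mouse 55, where 1 passed. With the fold limit 1 (Tead3) was called without CSA mouse 01 or CSA mouse 02, beside 15.7% and 15.4% of all genes.

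These values changed sign. Wwtr1 in CSS against CFS was 0.049 with equal FPKM sums and 0.011 with GC correction. Amotl2 was 0.035 in CSA against CSS and 0.15 in the interaction with GC correction, and Tead2 in the interaction 0.10 with library totals and 0.27 with GC correction. Leaving out each mouse gave, in CSA against CFA, -0.21 to 0.53 for Tead2 and -0.12 to 0.45 for Tead4. In CSS against CFS it gave -0.031 to 0.0055 for Wwtr1, -0.15 to 0.017 for Tead1, -0.38 to 0.35 for Tead4 and -0.023 to 0.077 for Lats2. In CFA against CFS it gave -0.094 to 0.0012 for Yap1, -0.20 to 0.036 for Tead1, -0.0039 to 1.26 for Ankrd1 and -0.22 to 0.041 for Amotl2, with a Tead1 share difference of -2.08 to 2.25 percentage points. For the interaction it gave -0.33 to 0.41 for Tead2, -0.21 to 0.55 for Tead4 and -1.04 to 0.23 for Ankrd1. The cause of these changes was not tested.

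Scaling to library totals moved the median of all genes by 0.15 in CSA against CFA and 0.18 in CSA against CSS. No paired analysis was possible because no 2 groups share mouse numbers in the labels. Depth limits Tead4 most, at 37 fragments in 1 mouse.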
